A study of Mus musculus with 2 samples.

Results

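The 9 genes described here are a small signalling family: the ligands Il34, Csf1 and Kitl and the receptors Csf1r, Csf2ra, Csf2rb, Csf3r, Flt3 and Kit. They were chosen by symbol, and all 9 of them were found among the 25827 genes of both matrices. The data are 2 single-cell RNA libraries from the whole brain of adult mice, made with a droplet kit that reads the 3′ end of each transcript. Sorting by surface markers aimed at vascular cells (mural cells with fibroblasts, and endothelium), at astrocytes, at microglia and at border-associated macrophages (BAMs), which sit in the meninges, the choroid plexus and around vessels. The first library came from mice with the genotype IL34LacZ/+ (heterozygous below) and the second from mice with IL34LacZ/LacZ (homozygous below), so the heterozygous reference also carries the lacZ allele and neither library is wild type. The labels used here do not state how many animals were pooled, their sex, their age beyond adult or the proportions in which sorted cells were loaded.

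Interleukin-34 and CSF1 are separate ligands of the same receptor tyrosine kinase, CSF1R, on which microglia and most tissue macrophages depend for survival. KIT and FLT3 are related receptor kinases known from blood-forming progenitors, mast cells and dendritic cells, and Kitl encodes the ligand of KIT. CSF2RA, CSF2RB and CSF3R belong to the cytokine receptors and bind GM-CSF and G-CSF, the growth factors of macrophages and granulocytes.

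Each genotype has 1 library, so the genotypes were compared without a test. Levels are unique molecular identifiers (UMIs, 1 per captured transcript) of a gene summed over the cells of a class and scaled to the total UMIs of that class (in the usual unit, CPM). All intervals are exact 95% intervals that cover counting error only, and a ratio is always homozygous over heterozygous. Levels may be compared across cell classes for 1 gene, while levels of different genes were not compared. Where no UMI was read, the level that 3 UMIs would have given is stated as the limit.

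The filters left 8188 heterozygous cells (median 3540 UMIs) and 9553 homozygous cells (median 3678 UMIs). Cell classes were rebuilt from marker genes that exclude the 9 members, and the members were also left out of the genes used for clustering. 10 named classes with at least 50 cells in each library could be compared between libraries: BAM-like (2042 and 2026 cells), endothelial-like (1842 and 1731), fibroblast-like (608 and 912), choroid plexus epithelial-like (864 and 456), microglia-like (749 and 1025), neuron-like (394 and 795), mural-like (170 and 335), ependymal-like (127 and 264), oligodendrocyte-like (96 and 169) and neutrophil-like (86 and 175). Rarer classes, such as conventional dendritic (cDC2-like), monocyte-like and erythroid-like cells, are described over both libraries. Only 16 and 15 astrocyte-like cells were found, although astrocytes were a sorted population, while neurons, choroid plexus epithelium, ependymal cells, oligodendrocytes and neutrophils are outside the listed gates. The matrices share 103 cell barcodes, 25 of them among the kept cells, and choroid plexus epithelial markers were read in every class (in mural-like cells at 27736 and 8956 CPM), so some RNA of other cells is counted with each class.

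**Figure D1:**
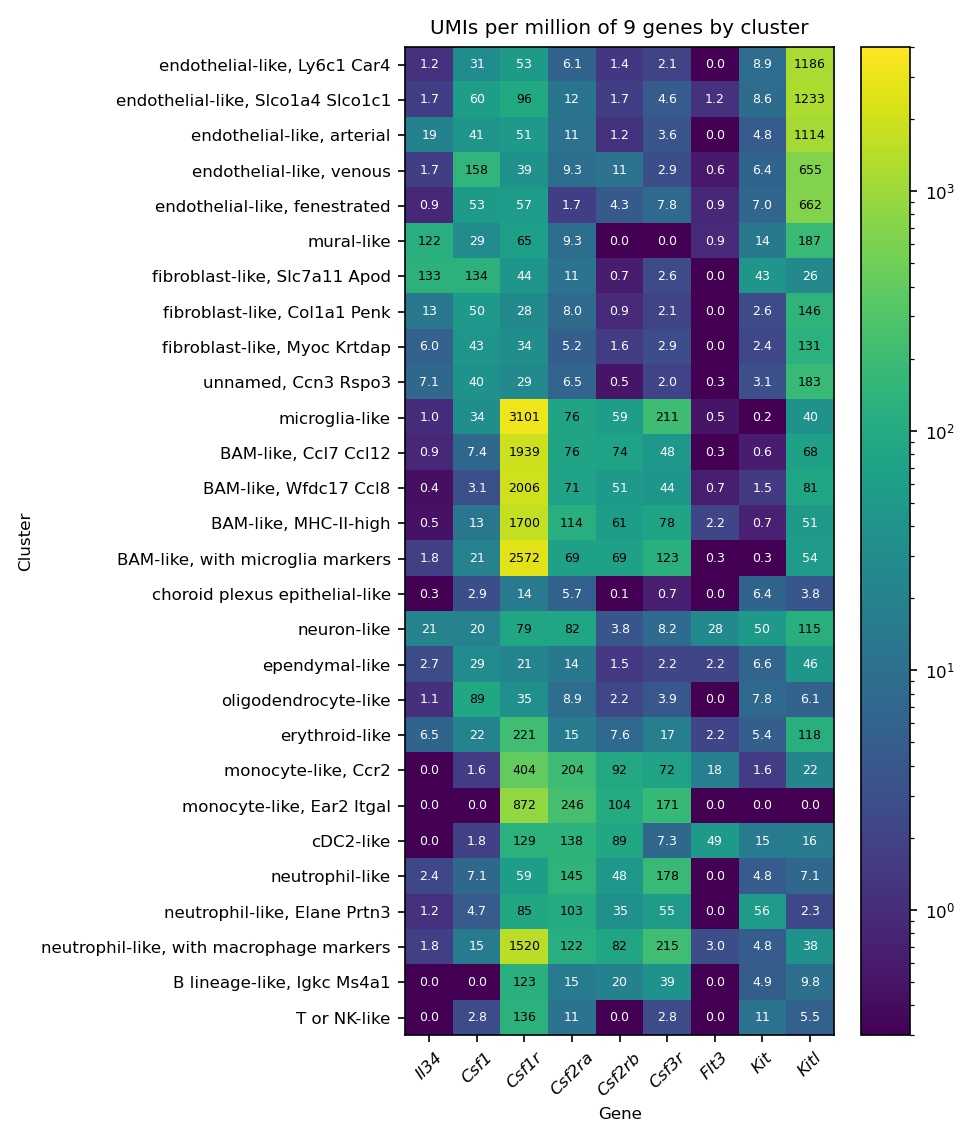
Level of each of the 9 genes (columns) in cell clusters (rows) over both libraries, in CPM, with colour on a log scale. Il34 stands out in mural-like cells and 1 fibroblast-like cluster (122 and 133 CPM), Kitl in endothelial-like clusters, and Csf1r in microglia-like and BAM-like clusters and in a neutrophil-like subcluster that carries macrophage markers.

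The targeted gene comes first. Il34 (chromosome 8, 110741829 to 110805924, minus strand, GRCm38) gave 286 UMIs in the heterozygous and 383 UMIs in the homozygous kept cells. Il34 reads were thus present in the library labelled IL34LacZ/LacZ. The sources used here do not say which stretch of the transcript the lacZ allele replaces, and a 3′ read outside that stretch cannot check a genotype. lacZ itself is not among the features used here, so the genotype labels were not checked by these reads.

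The Il34 level was highest in 2 kinds of vascular and perivascular cells. Mural-like cells (pericytes and smooth muscle, led by Rgs5, Vtn and Atp13a5) held 139.7 CPM in the heterozygous library (interval 104 to 184, 50 UMIs) and 112.8 CPM in the homozygous one (89.6 to 140, 81 UMIs). A fibroblast-like cluster led by Apod, Slc7a11, Dcn and Ptgds held 156.7 CPM (125 to 195, 82 UMIs) and 120.0 CPM (99.6 to 143, 121 UMIs). Within each library the level in these fibroblast-like cells and that in mural-like cells overlapped, with a ratio of 1.12 (0.780 to 1.63) in the heterozygous and 1.06 (0.796 to 1.43) in the homozygous library. An Il34 UMI was seen in 28.4% and 24.5% of the cells of this fibroblast-like cluster, in 21.2% and 20.9% of mural-like cells, and in 0.597% and 0.693% of endothelial-like cells. Endothelial-like cells were deeper (median 2112 and 2097 UMIs per cell) than mural-like cells (1634 and 1849 UMIs).

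The other fibroblast-like clusters were much lower in Il34. The cluster led by Col1a1, Col1a2 and Penk held 15.6 and 11.8 CPM, and the cluster led by Myoc and Krtdap 9.16 and 4.39 CPM. The Apod and Slc7a11 cluster was 10.0 times (6.45 to 15.99) and 10.2 times (6.73 to 15.8) the Col1a1 cluster in the heterozygous and the homozygous library. This cluster made up 33.1% of heterozygous and 38.5% of homozygous fibroblast-like cells. Its cells were shallower (median 2211.5 UMIs) than those of the Col1a1 (7198.5) and Myoc clusters (8030.5). The class level weights each cluster by its UMIs and not by its cells, and the class as a whole held 33.7 and 27.0 CPM. The fibroblast-like Il34 level is therefore a mixture of 1 high cluster and 2 low ones.

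The high cluster also carried mural markers, at 4742 CPM summed over 12 genes against 29257 CPM in mural-like cells. Most of that sum was Vtn, the vitronectin gene, at 4058 CPM, and the other 11 markers summed to 684 CPM against 18793 CPM in mural-like cells. All 12 fibroblast markers were read in it, at 15253 CPM. Its Il34 level was as high as that of mural-like cells while the mural markers other than Vtn stood far below theirs.

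Within mural-like cells Il34 was spread over the subclusters. The smooth muscle subcluster (85 cells) held 134 CPM (85.2 to 202) and the 2 largest other subclusters (176 and 120 cells) held 123 CPM (86.6 to 170) and 133 CPM (92.5 to 185). The highest level, 255 CPM (154 to 399), came from a subcluster of 32 cells with 19 UMIs. The lowest, 40.8 CPM (13.3 to 95.2), came from 27 cells led by the endothelial genes Ly6c1, Ly6a and Itm2a, with 563 CPM of Kitl. The highest subcluster is apart from this one and from a subcluster of 65 cells at 83.6 CPM (43.2 to 146), and all other intervals overlap.

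Neuron-like cells came after these among the compared classes, at 26.1 CPM (17.8 to 36.8) and 18.3 CPM (13.3 to 24.5), beside mural markers at 563 and 682 CPM. Arterial endothelial-like cells held 17.6 and 21.4 CPM on 8 UMIs in each library, beside 4059 and 5622 CPM of mural markers, and the other endothelial-like clusters lay below 3 CPM. Microglia-like and BAM-like cells, the cells with the receptor, gave 6 and 18 UMIs in all, at 1.003 and 0.905 CPM. Astrocyte-like, cDC2-like and monocyte-like cells gave no Il34 UMI, which allows up to 14.1, 5.45 and 3.93 CPM.

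The Il34 ratio between the libraries was below 1 in each of the 3 named classes with at least 50 UMIs, and all 3 intervals included 1. It was 0.808 in mural-like cells (0.561 to 1.17), 0.801 in fibroblast-like cells (0.629 to 1.02) and 0.701 in neuron-like cells (0.435 to 1.14). In the Apod and Slc7a11 fibroblast-like cluster it was 0.765 (0.574 to 1.03). For mural-like cells the ratio reached 0.992 when cells with up to 20% mitochondrial UMIs were kept. The unnamed cluster led by Ccn3 and Rspo3 was also below 1, at 0.741 (0.470 to 1.17, on 41 and 42 UMIs). No class interval set the libraries apart by itself, and the classes were not combined. With 1 library per genotype, these ratios cannot be tied to the genotype.

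**Figure D2:**
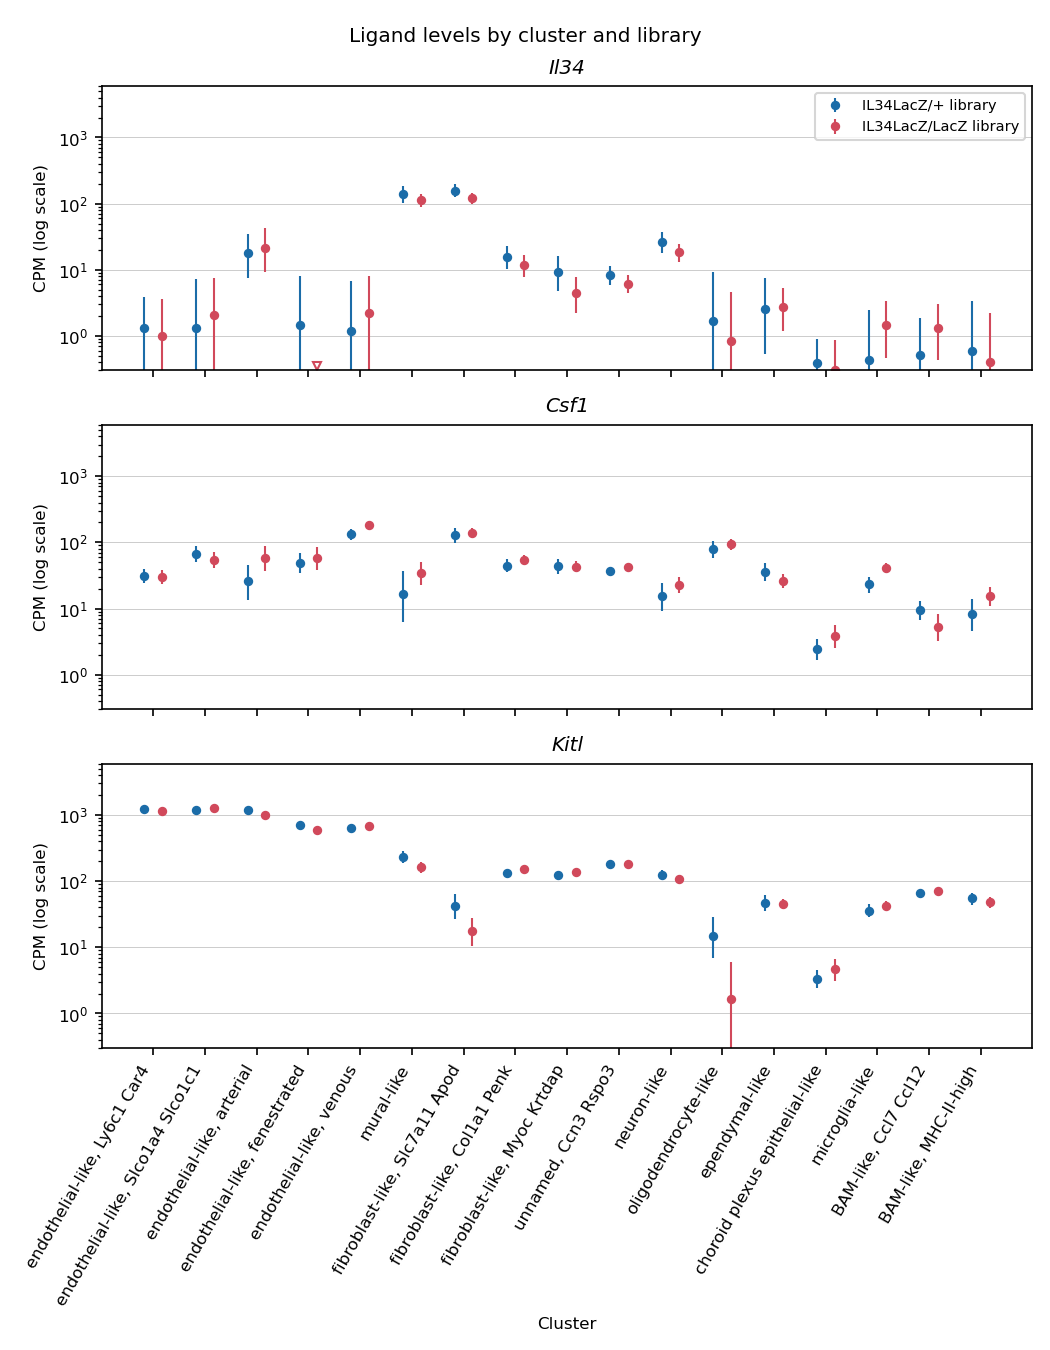
Levels of Il34, Csf1 and Kitl (CPM, log scale) by cell cluster in the heterozygous (blue) and homozygous (red) library, with exact 95% Poisson intervals and open triangles for a count of 0. Il34 is highest in mural-like cells and the Apod and Slc7a11 fibroblast-like cluster in both libraries, and Csf1 in venous endothelial-like cells and the same fibroblast-like cluster.

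Csf1 (chromosome 3, 107741048 to 107760469, minus strand), the second ligand of CSF1R, was read over more cell types. Among the 10 compared classes it was highest in oligodendrocyte-like cells, the myelin-forming glia, at 78.2 CPM (57.5 to 104) and 94.6 CPM (78.0 to 114). Endothelial-like cells (55.7 and 69.1 CPM) and fibroblast-like cells (56.3 and 63.5 CPM) followed, and their levels over both libraries overlapped. Choroid plexus epithelial-like cells (2.51 and 3.87 CPM) were lowest, and BAM-like cells (7.72 and 11.6 CPM) and neutrophil-like cells (10.1 and 11.6 CPM, on 9 and 24 UMIs) came next, with levels that overlapped.

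Within the endothelium Csf1 was uneven. Venous endothelial-like cells, led by Vwf, held 132 CPM (109 to 159, 110 UMIs) and 182 CPM (155 to 212, 163 UMIs). The large cluster led by Ly6c1 held 31.5 and 30.3 CPM, so that the venous level was 4.20 times (3.09 to 5.74) and 6.02 times (4.46 to 8.22) as high. Fenestrated endothelial-like cells, led by Plvap, held 49.1 and 59.0 CPM, between the venous and the Ly6c1 clusters. The cluster led by Slco1a4 also lay between them, at 67.1 and 54.2 CPM on 51 and 53 UMIs. The arterial cluster held 26.5 and 58.9 CPM on 12 and 22 UMIs. The venous ratio between the libraries was 1.38 (1.08 to 1.77).

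The Apod and Slc7a11 fibroblast-like cluster that was high in Il34 was also the highest fibroblast-like cluster in Csf1. It held 128 CPM (99.2 to 163) and 138 CPM (116 to 163), which was 2.87 times (2.04 to 4.01) and 2.56 times (2.01 to 3.28) the Col1a1 cluster. In this cluster 32.2% of the 143 cells with an Il34 UMI also had a Csf1 UMI, against 22.7% of the cells without one, but cells with Il34 were deeper (median 2794 against 2049 UMIs). Mural-like cells, which matched it in Il34, held only 16.8 and 34.8 CPM of Csf1 on 6 and 25 UMIs. Both ligands of CSF1R were therefore read in these fibroblast-like cells, and in mural-like cells mainly Il34 stood above the other classes.

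Among rarer cells, a proliferating subcluster led by Prss34, a basophil gene, held 71.8 CPM of Csf1 (56.9 to 89.5, 79 UMIs in 88 cells). A single cell gave 48.1% of its heterozygous Csf1 UMIs.

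Csf1 was higher in the homozygous library in microglia-like cells, at 40.2 CPM (33.9 to 47.2, 146 UMIs) against 22.6 CPM (16.9 to 29.5, 53 UMIs), a ratio of 1.78 (1.29 to 2.49). After thinning each cell to 1000 UMIs it was 1.27, on 19 and 33 UMIs. In BAM-like cells the ratio was 1.51 (1.12 to 2.05). The clusters differed in direction. A cluster of 181 and 233 cells that carries BAM markers (10979 CPM) and microglia markers (10008 CPM) together held 7.09 and 30.5 CPM of Csf1. There 36.2% of the homozygous UMIs came from a single cell. The MHC-II-high cluster held 8.35 and 15.3 CPM on 14 and 38 UMIs, a ratio of 1.83 (0.970 to 3.66). Without the cluster carrying microglia markers the BAM-like ratio was 0.958, and in the largest BAM-like cluster, led by Ccl7, Csf1 was lower in the homozygous library (9.46 and 5.29 CPM, ratio 0.559, 0.307 to 0.988). The direction in BAM-like cells therefore depends on which clusters are counted.

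Kitl (chromosome 10, 100015630 to 100100416, plus strand), the ligand of KIT, was an endothelial gene in these data. Endothelial-like cells held 1043 CPM (5208 UMIs) and 1020.4 CPM (4815 UMIs), a ratio of 0.979 (0.941 to 1.02), and gave 67.3% and 56.8% of all Kitl UMIs. A Kitl UMI was seen in 81.5% and 83.4% of endothelial-like cells and, after thinning each cell to 1000 UMIs, in 61.6% and 62.3%. Among choroid plexus epithelial-like cells, which are far deeper, the share was 4.17% and 6.14%.

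Along the vascular tree Kitl fell into a higher and a lower group. The clusters led by Slco1a4 and by Ly6c1 and the arterial cluster held 1192 and 1264 CPM, 1216 and 1152 CPM, and 1206 and 1002 CPM. Venous (628 and 681 CPM) and fenestrated (704 and 599 CPM) endothelial-like cells were lower. The Ly6c1 cluster was 1.94 times (1.76 to 2.13) and 1.69 times (1.55 to 1.85) the venous cluster, the reverse of the order seen for Csf1.

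Kitl in mural-like cells was 235 CPM (187 to 291, 84 UMIs) and 163 CPM (135 to 195, 117 UMIs), a ratio of 0.694 (0.520 to 0.930). The endothelial markers summed to 2473 and 1929 CPM in these cells, 14.3% of the heterozygous Kitl UMIs came from 1 cell, and at a finer clustering the ratio was 1.02. Among fibroblast-like cells Kitl was lowest in the Apod and Slc7a11 cluster, at 42.1 and 17.8 CPM, where the Col1a1 cluster held 134 and 155 CPM. The unnamed cluster led by Ccn3 and Rspo3 held 182 and 183 CPM. The fibroblast-like cluster highest in Il34 was thus the lowest of the 3 in Kitl.

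BAM-like cells held 65.1 and 65.0 CPM of Kitl (ratio 0.999, 0.895 to 1.12), beside 300.1 and 254 CPM of endothelial markers. For every 100 endothelial marker UMIs this is 21.7 and 25.6 Kitl UMIs, against 4.78 and 4.75 in endothelial-like cells. The Kitl of BAM-like cells did not stand in the proportion found in endothelial-like cells. Microglia-like (18.3 and 21.5), fibroblast-like (12.8 and 15.7) and ependymal-like cells (31.6 and 33.1) were also above that proportion. Choroid plexus epithelial-like (3.03 and 4.10) and oligodendrocyte-like cells (4.31 and 1.33) were not. The source of this Kitl was not tested. In neuron-like cells Kitl was 125 and 109 CPM, with 15 and 10.3 Kitl UMIs per 100 endothelial marker UMIs.

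**Figure D3:**
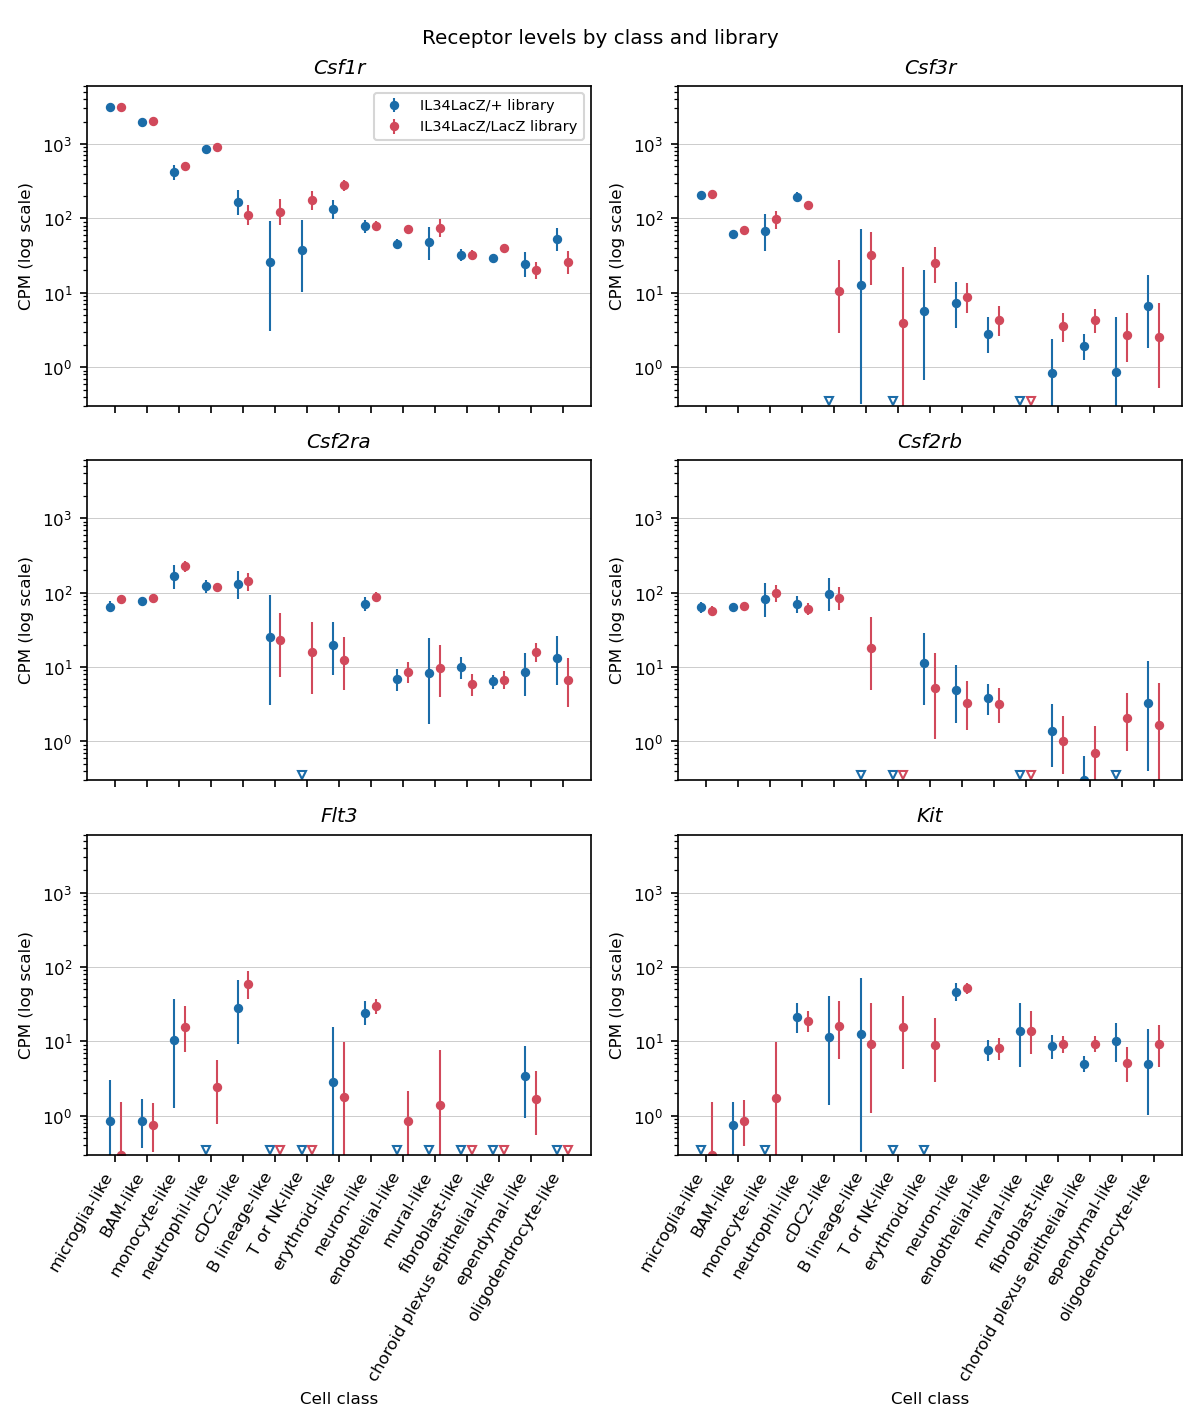
Levels of the 6 receptor genes (CPM, log scale) by cell class in the heterozygous (blue) and homozygous (red) library, with exact 95% Poisson intervals and open triangles for a count of 0. Csf1r and Csf3r are highest in microglia-like cells among the compared classes, Csf2ra and Csf2rb in myeloid cells, Flt3 in cDC2-like and neuron-like cells, and Kit in neuron-like cells.

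Csf1r (chromosome 18, 61100598 to 61132149, plus strand), which encodes the receptor of IL-34 and CSF1, was highest in microglia-like cells. The level was 3085 CPM (7251 UMIs) in the heterozygous and 3095 CPM (11247 UMIs) in the homozygous library, a ratio of 1.003 (0.974 to 1.03). Its gene overlaps Hmgxb3, which lies on the other strand. BAM-like cells held 1952 and 2062 CPM, a ratio of 1.06 (1.04 to 1.08) against 1.02 for the median gene of that class. Microglia-like cells were 1.58 times (1.54 to 1.62) and 1.501 times (1.467 to 1.536) as high as BAM-like cells, and a Csf1r UMI was seen in 98.8% and 99.2% of microglia-like and in 95.6% and 97.8% of BAM-like cells.

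The 4 BAM-like clusters of over 50 cells differed in Csf1r. The MHC-II-high cluster, which carries antigen presentation genes, was lowest at 1673 and 1718 CPM, 0.902 (0.863 to 0.942) and 0.848 (0.816 to 0.880) times the Ccl7 cluster. The cluster with microglia markers was highest at 2562 and 2579 CPM, between the other BAM-like clusters and microglia-like cells. The Ccl7 cluster held 1855 and 2027 CPM, a ratio of 1.09 (1.06 to 1.13).

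Monocyte-like, cDC2-like and neutrophil-like cells carried less. Monocyte-like cells led by Ear2 and Itgal held 872 CPM (721 to 1045, 29 cells) and those led by Ccr2 held 404 CPM. cDC2-like cells held 165 and 112 CPM. Neutrophil-like cells read 850.0 and 916 CPM, but nearly all of it came from 1 subcluster of 50 and 86 cells, at 1527 and 1517 CPM, which also carries BAM markers (7137 CPM) and microglia markers (4621 CPM). The other neutrophil-like subclusters held 59.5 and 85.0 CPM over both libraries, so Csf1r in the neutrophil-like class moved with macrophage markers.

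Outside these cells Csf1r was set beside other macrophage genes. Summed over C1qa, C1qb, C1qc, Ctss, Cx3cr1, Fcer1g and Tyrobp, 100 macrophage gene UMIs came with 7.78 and 7.75 Csf1r UMIs in microglia-like cells, 8.51 and 8.95 in endothelial-like cells, 7.38 and 7.82 in fibroblast-like cells and 8.51 and 6.95 in choroid plexus epithelial-like cells. Neuron-like cells were a little above, at 11.8 (9.46 to 14.6) and 9.81 (8.41 to 11.4). cDC2-like cells were far below, at 2.62 (1.75 to 3.78) and 1.48 (1.06 to 2.0). Monocyte-like cells were also below, at 4.31 (3.41 to 5.40) and 4.94 (4.38 to 5.56). T or NK-like cells were at 1.65 (0.447 to 4.29, on 4 Csf1r UMIs) and 7.55 (5.45 to 10.2). In fibroblast-like cells Csf1r thus stood near the proportion found in microglia-like cells. In endothelial-like cells the heterozygous interval (7.40 to 9.75) included that proportion, while the homozygous one (7.99 to 10.0) lay above it. BAM-like cells were below it, at 6.63 (6.53 to 6.73) and 6.94 (6.85 to 7.04). The choroid plexus epithelial-like values include a small cluster that carries microglia markers. In the larger cluster Csf1r was 13.998 and 14.7 CPM beside 127 and 167 CPM of the macrophage genes. That proportion was above the one in microglia-like cells, more so in the heterozygous library.

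**Figure D4:**
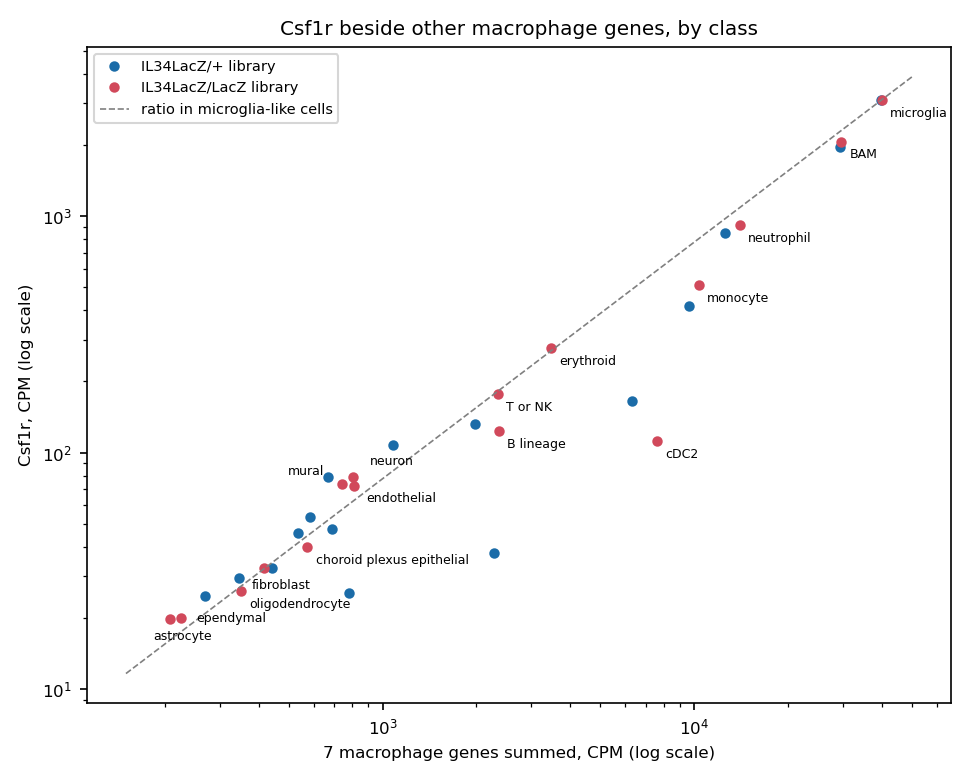
Csf1r (vertical, CPM, log scale) against the summed level of 7 other macrophage genes (horizontal, CPM, log scale), 1 point per cell class and library, with names beside the homozygous points. The dashed line is the proportion in microglia-like cells. Most classes lie near it, and cDC2-like and monocyte-like cells lie below it in both libraries. So do B lineage-like cells (on 2 and 27 Csf1r UMIs) and, by less, BAM-like and neutrophil-like cells.

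Among the compared classes other than BAM-like cells, 3 had a Csf1r interval that excluded 1. In these Csf1r and that sum moved the same way between the libraries. They also did so in ependymal-like (0.815 with 0.839) and neutrophil-like cells (1.08 with 1.12), with Csf1r intervals that included 1. In endothelial-like cells Csf1r was 45.6 and 72.5 CPM (ratio 1.59, 1.34 to 1.89) while the macrophage genes were 536 and 810 CPM (1.51). In choroid plexus epithelial-like cells it was 29.5 and 39.8 CPM (1.35, 1.16 to 1.57) with the macrophage genes at 347 and 573 CPM (1.65). In oligodendrocyte-like cells it was 53.2 and 25.95 CPM (0.487, 0.288 to 0.825) with the macrophage genes at 584 and 350.0 CPM (0.599). The ratios differed in mural-like cells (Csf1r 1.55, 0.886 to 2.86, with a sum ratio of 1.07), in neuron-like cells (0.9985 with 1.20) and in the unnamed cluster led by Prl and Pomc (1.34, 0.833 to 2.20, with 0.559). In the Slco1a4 endothelial-like cluster Csf1r was 97.4 and 94.1 CPM (ratio 0.966, 0.704 to 1.33) while the sum was 850.0 and 1371 CPM.

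Choroid plexus epithelial-like cells comprised a cluster of 843 and 430 cells and one of 21 and 26 cells that carried microglia markers at 2346 CPM, against 67.6 CPM in the first. The small cluster gave 219 of the 400 heterozygous and 193 of the 288 homozygous Csf1r UMIs. Without it Csf1r was 13.998 and 14.7 CPM, a ratio of 1.05 (0.812 to 1.36), so the higher Csf1r of this class came with the small cluster. The part of macrophage RNA in these ratios was not tested.

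Csf3r (chromosome 4, 126024550 to 126044440, plus strand) encodes the receptor of G-CSF, best known from neutrophils. Among the compared classes taken whole it was highest in microglia-like cells, at 208 CPM (488 UMIs) and 212 CPM (772 UMIs), a ratio of 1.02 (0.912 to 1.15). Microglia-like cells were 3.41 times (3.01 to 3.86) and 3.06 times (2.76 to 3.39) as high as BAM-like cells, at 60.9 and 69.5 CPM. Over the BAM-like clusters Csf3r was highest where microglia markers were read (120 and 125 CPM), then in the MHC-II-high cluster (68.0 and 84.2 CPM), and 42.2 to 47.8 CPM in the heterozygous Ccl7 and Wfdc17 clusters. A Csf3r UMI was seen in 43.1% and 46.8% of microglia-like cells and in 0.760% and 1.04% of endothelial-like cells.

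Neutrophil-like cells held 194 CPM (166 to 225) and 149.97 CPM (134 to 168) of Csf3r, a ratio of 0.773 (0.640 to 0.937). The subclusters with Retnlg among their leading genes, with and without macrophage markers, held 215 and 178 CPM over both libraries. The first of these, which carries microglia markers at 4621 CPM, was at the level of microglia-like cells (210.6 CPM). Maturity was not scored. The subcluster that carries the precursor genes Elane and Prtn3 held 54.7 CPM. The 12 alternatives for this ratio all gave values below 1, from 0.693 to 0.869. Mural-like cells gave no Csf3r UMI, which allows up to 8.38 and 4.18 CPM.

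Csf2ra and Csf2rb encode the 2 chains of the GM-CSF receptor, the ligand-binding alpha chain and the signalling beta chain. Csf2ra (chromosome 19, 61223957 to 61228429, minus strand) was highest in monocyte-like cells, at 166 CPM (114 to 235) and 226 CPM (189 to 269). Neutrophil-like (121 and 119 CPM) and cDC2-like cells (131 and 141 CPM) followed, and BAM-like (76.3 and 86.0 CPM) and microglia-like cells (65.1 and 82.0 CPM) were lower. Within BAM-like cells the MHC-II-high cluster stood out, at 106 and 120 CPM, which was 1.40 times (1.15 to 1.69) and 1.57 times (1.33 to 1.85) the Ccl7 cluster. The Csf2ra ratio between libraries was 1.26 (1.03 to 1.54) in microglia-like and 1.13 (1.02 to 1.24) in BAM-like cells. In fibroblast-like cells, with 36 and 35 UMIs, Csf2ra was 9.94 and 5.86 CPM (ratio 0.590, 0.360 to 0.967).

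Csf2rb (chromosome 15, 78325752 to 78353847, plus strand) was read mainly in myeloid cells. It stood at 83.1 and 98.2 CPM in monocyte-like cells, 64.8 and 65.2 CPM in BAM-like cells, 69.5 and 61.0 CPM in neutrophil-like cells and 63.4 and 57.0 CPM in microglia-like cells. Over both libraries the last 3 of these overlapped, while monocyte-like cells (94.4 CPM, 73.9 to 119) were above BAM-like and microglia-like cells. The other compared classes lay below 5 CPM in each library, and mural-like cells gave no UMI. Csf2rb has a near-identical neighbour, Csf2rb2, which was read at 22.4 CPM in microglia-like cells, and how reads were divided between these copies is uncertain.

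The 2 chains were not equally distributed. Neuron-like cells held 70.0 and 88.4 CPM of Csf2ra (86 and 213 UMIs), which overlaps the BAM-like level, but 4.89 and 3.32 CPM of Csf2rb on 6 and 8 UMIs. These cells had a median of 2324 and 2503 UMIs and held 669 and 804 CPM of macrophage genes, against 29421 and 29697 CPM in BAM-like cells. Neuron-like cells also held astrocyte markers at 1548 and 1527 CPM and oligodendrocyte markers at 1164 and 1640 CPM. The part of other cells' RNA in this Csf2ra level was not tested.

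Flt3 (chromosome 5, 147330741 to 147400489, minus strand), the receptor of FLT3 ligand that marks dendritic cells and their precursors, was the least read of the 9 genes, with 60 and 150 UMIs. cDC2-like cells held 28.5 CPM (9.26 to 66.6, 5 UMIs) and 58.6 CPM (36.7 to 88.7, 22 UMIs). Ccr2 monocyte-like cells held 17.5 CPM and an unnamed MHC-II-rich leukocyte subcluster 18.6 CPM, on 11 and 14 UMIs. Neuron-like cells held 24.4 and 29.9 CPM on 30 and 72 UMIs, a ratio of 1.22 (0.789 to 1.94), and gave 50% and 48.0% of all Flt3 UMIs. Fibroblast-like and choroid plexus epithelial-like cells gave no Flt3 UMI, which allows up to 0.313 and 0.144 CPM over both libraries. Microglia-like and BAM-like cells gave 3 and 16 UMIs.

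Kit (chromosome 5, 75574916 to 75656722, plus strand), the receptor of Kitl, was highest in neuron-like cells among the compared classes, at 46.4 CPM (35.2 to 60.1) and 51.9 CPM (43.2 to 61.8), a ratio of 1.12 (0.811 to 1.56). The neutrophil-like subcluster with Elane and Prtn3 held 51.6 and 58.3 CPM, on 16 and 32 UMIs in 16 and 37 cells. The Retnlg subcluster without macrophage markers held 1 UMI in each library. The Apod and Slc7a11 fibroblast-like cluster held 44.0 CPM (27.9 to 66.0) and 42.6 CPM (30.9 to 57.4), while the Col1a1 cluster held 1.12 and 3.66 CPM and the Myoc cluster 4.58 and 1.20 CPM. The ratio of the Apod and Slc7a11 cluster to the Col1a1 cluster was 39.3 (9.72 to 344) on 2 UMIs in the second and 11.6 (5.60 to 27.1) on 9. The fibroblast-like cluster with the most Il34 and Csf1 was thus also the fibroblast-like cluster with the most Kit and the least Kitl. Microglia-like cells gave a single Kit UMI.

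Across the 10 classes, 51 of the 90 pairs of gene and class had at least 50 UMIs, and 9 of these were at least 1.5-fold higher and 2 at least 1.5-fold lower in the homozygous library. Over all genes with as many UMIs in the same classes the shares were 4.41% and 2.64%. In choroid plexus epithelial-like cells 4 of 6 measured members were higher (6.18% of all genes were, and 0.651% were lower): Csf1, Csf3r, Kit and Kitl. These rest on few UMIs, with Csf3r at 1.92 and 4.29 CPM (26 and 31 UMIs, ratio 2.23), Kit at 4.94 and 9.26 CPM (67 UMIs each, 1.87, 1.32 to 2.67) and Kitl at 3.62 and 5.81 CPM, and the macrophage genes in this class were 1.65 times as high. Without the small cluster carrying microglia markers 2 of 5 were higher, Csf1 (1.57, 0.889 to 2.73) and Kit (1.94, 1.34 to 2.80), where 5.95% of all genes were higher and 0.878% lower. There Csf3r was 0.696 and 0.620 CPM on 9 and 4 UMIs (0.891, 0.200 to 3.19) and Kitl 3.33 and 4.65 CPM (1.40, 0.847 to 2.28). The Kitl ratio of the whole class also turned to 0.867 at a mitochondrial limit of 5%, on 5 and 3 UMIs, and to 0.924 with doublet calls kept. The part of free RNA in these values was not tested.

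The other classes held 1 pair past the fold or none. In BAM-like cells Csf1 was higher (1 of 6, where 3.02% of all genes were higher and 1.79% lower), in microglia-like cells Csf1 (1 of 6, 3.87% and 2.18%) and in endothelial-like cells Csf1r (1 of 5, 3.41% and 1.57%). In mural-like cells Csf1r was higher, at 47.5 and 73.8 CPM on 17 and 53 UMIs (1 of 3, 7.51% and 5.57%), and the ratio was 0.903 when cells with up to 20% mitochondrial UMIs were kept. In ependymal-like cells it was Csf2ra, at 8.502 and 15.998 CPM on 10 and 47 UMIs (1 of 4, 4.12% and 2.51%). Its ratio was 1.88 (0.938 to 4.18), and 0.321 with cells thinned to 1000 UMIs, on 3 and 2 UMIs. In fibroblast-like cells Csf2ra was lower (1 of 6, 3.11% and 1.82%) and in oligodendrocyte-like cells Csf1r (1 of 2, 4.28% and 4.22%). None of 7 measured members was past the fold in neuron-like cells (4.93% and 4.53%) and none of 6 in neutrophil-like cells (6.25% and 5.1%). Of the larger unnamed clusters, the one led by Ccn3 had no member past the fold (3.36% and 2.06%) and the one led by Prl and Pomc had Csf1 higher, at 45.4 and 75.4 CPM (11.6% and 10.1%).

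**Figure D5:**
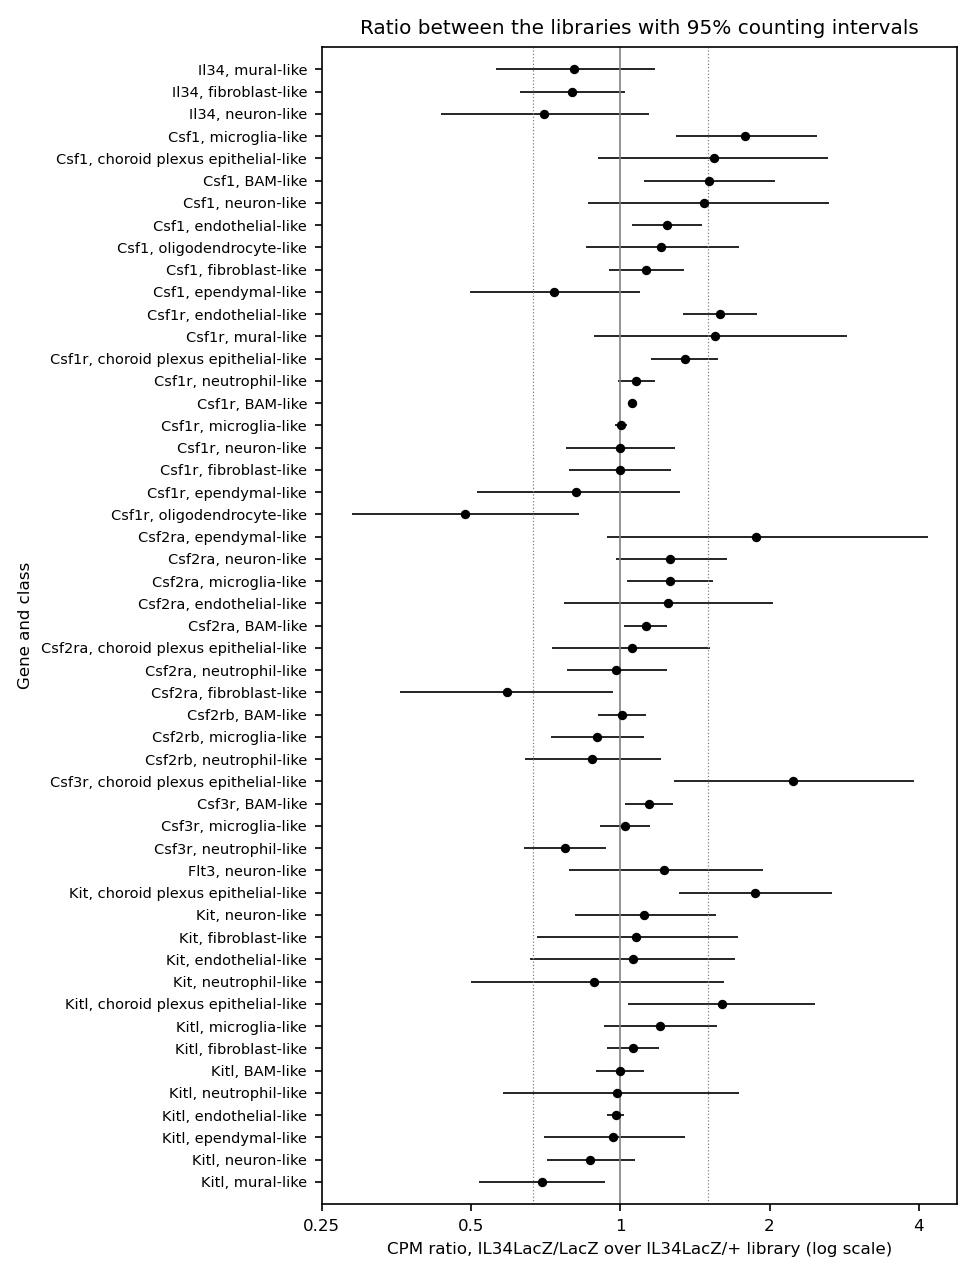
Ratio of CPM between the homozygous and the heterozygous library (horizontal, log scale) for each gene and class with at least 50 UMIs, with exact 95% counting intervals. The solid line marks 1 and the dotted lines 1.5-fold either way; Csf1 in microglia-like cells (1.78) and Csf1r in oligodendrocyte-like cells (0.487) have intervals that exclude 1, and Csf1r in microglia-like cells lies at 1.

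A list of 47 further genes of these pathways was read beside the members. In BAM-like cells 41 had at least 50 UMIs and none was past 1.5-fold (3.02% of all genes were higher and 1.79% lower). In microglia-like cells 36 had enough and 1 was higher (3.87% and 2.18% of all genes), Src, a kinase that acts downstream of CSF1R, at 15.7 and 25.9 CPM (ratio 1.64, 1.11 to 2.47). In fibroblast-like cells none of 33 was past the fold (3.11% and 1.82%). These are low shares of short lists, and nothing particular to the list is read from them.

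The highest pathway genes of microglia-like cells were close between the libraries. Tyrobp, the adaptor of TREM2, stood at 3219 and 3215 CPM, the kinase Lyn at 536 and 568 CPM and Pik3r1 at 276 and 261 CPM. Of the negative regulators, Inpp5d was 342 and 398 CPM, Cbl 212 and 220.4 CPM and Ptpn6 165 and 165 CPM. Trem2, a lipid receptor of microglia, was 2699 and 2571 CPM, and Irf8 and Runx1, transcription factors of the myeloid lineage, were 499.98 and 519, and 399 and 412 CPM. Adam10 and Adam17, proteases that shed membrane receptors and ligands, were 294 and 289 and 159 and 155 CPM. The paralog Csf2rb2 was 19.999 and 23.9 CPM, Ptprz1 gave 8 and 21 UMIs, and of the other ligands only Flt3l gave UMIs in these cells, 10 and 21.

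In choroid plexus epithelial-like cells 8 of 32 measured pathway genes were higher and none lower, beside 6.18% and 0.651% of all genes. Among them were the macrophage genes Trem2 (21.3 and 37.2 CPM) and Tyrobp (32.1 and 49.2 CPM), with Irf8, Fli1, Runx1, Flt3l and Socs3 at lower levels (up to 10.2 CPM). Without the small cluster carrying microglia markers 2 of 28 were higher, Fli1 and Socs3, and none lower (5.95% and 0.878% of all genes). In neuron-like cells 6 of 28 were higher and none lower (4.93% and 4.53% of all genes), from 1.53 to 1.82 times: Gab2, Shc1, Pik3cd, Stat5b, Irf8 and Fli1. Pik3cd, a catalytic PI3-kinase subunit, had the most UMIs, at 48.9 and 75.1 CPM, and the intervals of the others except Stat5b included 1. In endothelial-like cells Flt3l, the ligand of FLT3, was higher (11.2 and 17.2 CPM) and Socs3, an inhibitor of cytokine signalling, lower (50.2 and 32.8 CPM, ratio 0.654, 0.532 to 0.802).

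The remaining classes had 1 to 3 pathway genes past the fold. In neutrophil-like cells, which include the subcluster carrying macrophage markers, Trem2 was higher (344 and 536 CPM). Microglia markers in this class were 2096 and 2988 CPM and BAM markers 4727 and 4100 CPM. The part of macrophage RNA in this Trem2 level was not tested. In mural-like cells Fli1 was higher (47.5 and 72.4 CPM) and Adam17 was lower (64.3 and 39.0 CPM), with intervals that both included 1. Tyrobp was lower in ependymal-like (38.3 and 18.7 CPM) and oligodendrocyte-like cells (58.2 and 34.3 CPM). The macrophage gene sum, which includes Tyrobp, was 0.839 times as high in ependymal-like and 0.599 times as high in oligodendrocyte-like cells.

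The larger unnamed clusters held further genes of the list past the fold. In the cluster led by Ccn3 and Rspo3, Flt3l, Tyrobp, Src, Inpp5d, Ptpn6 and Socs1 were higher, of which Tyrobp had the most UMIs (28.1 and 45.4 CPM), beside a macrophage gene sum 1.43 times as high. Cebpb, a transcription factor of myeloid and stress responses, was lower there, at 253 and 125 CPM (ratio 0.494, 0.452 to 0.540). In the cluster led by Prl and Pomc, Ptprz1, Shc1, Fyn, Socs3, Runx1 and Cebpb were lower and Ets2 was higher, beside a macrophage gene sum 0.559 times as high.

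The ligands that pair with the other receptors were rare. Csf2 gave 6 UMIs, all in T or NK-like cells, and Csf3 gave 3 UMIs in BAM-like cells among the named classes. Flt3l was highest in T or NK-like cells, at 33.2 CPM on 12 UMIs, then in endothelial-like cells at 14.1 CPM. Ptprz1, a reported partner of IL-34 outside macrophages, was highest in astrocyte-like cells, at 3137 CPM over 31 cells, then in ependymal-like cells at 395 CPM.

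The genes most like each member were found by the correlation of log2(CPM + 1) over 15 named classes, which share libraries and depth, so that the values only describe these data. Il34 was most like Lamc3 (r = 0.975), Nfatc4 (0.969) and Vtn (0.965), all highest in mural-like cells. Csf1r was most like Cx3cr1 (0.981), Fcgr3 (0.978) and C3ar1 (0.973). Csf3r was most like Gm44428 (0.925), Cx3cr1 (0.910) and Crybb1 (0.904), all highest in microglia-like cells. Csf2rb was most like Tifab (0.973), its neighbour Csf2rb2 (0.967) and Tlr2 (0.965), and Csf2ra like Mctp1 (0.919), Ptpro (0.916) and Gm37084 (0.913). Kitl was most like Hspa12b (0.927), C130074G19Rik (0.906) and Slc39a10 (0.902), all highest in endothelial-like cells.

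Csf1 was most like Tmc7 (0.921), Fgfbp3 (0.889) and Sspn (0.887), each highest in a different class. Flt3 was most like Trerf1 (0.856), Dnd1 (0.811) and Ryr1 (0.794), all highest in neuron-like cells, and Kit like Lmtk2 (0.831) and Limk2 (0.781).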

How the data were processed

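The labels' protocols name a Chromium 3′ v3.1 kit (10x Genomics). The authors deposited 1 matrix of UMI counts per library. The file headers name Cell Ranger 5.0.0, and the submitters' processing notes name GRCm38.p6 (mm10). How Cell Ranger chose the barcodes is not stated there. The matrices hold 17168 barcodes with 87394167 UMIs (heterozygous) and 18858 with 95505407 (homozygous). All counts used are whole numbers, and the depth per class sets the intervals.

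Cells were kept with at least 1000 UMIs, 500 genes and at most 10% mitochondrial UMIs. Scrublet, run per library at an expected rate of 10%, called 1145 and 1363 doublets, which were removed. Cells were grouped by the Leiden method (resolution 1, seed 1) on 20 nearest neighbours over 30 components of 2000 variable genes without the 9 members, giving 31 clusters; leukocytes were clustered again into 12 subclusters. Clusters were named from marker lists (a score of at least 1, a lead of 0.5, at least 3 markers 2-fold enriched, and own markers leading among the top 10 genes). These thresholds were set on the data, and so a class can differ from the authors' own.

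UMIs were summed per class and library. Intervals are exact Poisson (levels), conditional binomial (ratios) and Clopper-Pearson (shares). A pair counted as past the fold with at least 50 UMIs and a ratio of at least 1.5 either way. The computation was tested on simulated data. The text names all 9 genes in every class, the 3 genes most like each (Pearson correlation, at least 100 UMIs), genes of the pathway list past the fold in a class, and the 3 highest of each pathway sublist in microglia-like cells. Some genes that this rule names are not reported here, and the counts include them. Gene positions come from GENCODE vM21. The members and lists were chosen with earlier results of these data known. Alternatives covered cell filters, doublets, clustering, weighting, thinning, single cells, scaling and thresholds. Versions were scanpy 1.11.5, leidenalg 0.10.2 and igraph 0.11.9, then scipy 1.17.1 and numpy 2.4.6, under Python 3.11.15.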

Additional observations from a re-analysis of the deposited data

Results flagged for a closer look

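With 1 library per genotype, a ratio was set beside another where the intervals of the same gene lay on opposite sides of 1 in 2 classes; the differences between classes were not tested, and the intervals cover counting error only. Csf1r was higher in the homozygous library in BAM-like (1.06), choroid plexus epithelial-like (1.35) and endothelial-like cells (1.59) and lower in oligodendrocyte-like cells (0.487); the macrophage gene sum was 1.01, 1.65, 1.51 and 0.599 times as high in the same order. Without the small choroid plexus epithelial-like cluster carrying microglia markers, the ratio of that class was 1.05 (0.812 to 1.36). In the Slco1a4 endothelial-like cluster it was 0.966 (0.704 to 1.33). Csf2ra was higher in BAM-like (1.13) and microglia-like cells (1.26) and lower in fibroblast-like cells (0.590, on 36 and 35 UMIs).

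Csf3r was higher in BAM-like (1.14), choroid plexus epithelial-like (2.23) and fibroblast-like cells (4.25, on 3 and 21 UMIs) and lower in neutrophil-like cells (0.773). Without the small cluster carrying microglia markers the choroid plexus epithelial-like ratio was 0.891 (0.200 to 3.19, on 9 and 4 UMIs). Of the neutrophil-like Csf3r UMIs, 131 of 173 and 230 of 310 came from the subcluster carrying macrophage markers. Kitl was higher in choroid plexus epithelial-like cells (1.61, on 49 and 42 UMIs) and lower in mural-like (0.694) and oligodendrocyte-like cells (0.112, on 9 and 2 UMIs). In choroid plexus epithelial-like cells it turned to 0.867 at a mitochondrial limit of 5% (5 and 3 UMIs) and to 0.924 with doublet calls kept, and in mural-like cells to 1.02 at a finer clustering.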

How the results depend on the processing

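Ratios are log2 here. Of 132 values that answer a comparison, 119 stayed within their counting interval or within 1.5 times the count, and 13 did not; of 238 others the numbers were 213, 16 and 9 that turned direction. The cause of these moves was not tested. Kitl in endothelial-like cells was -0.097 with at least 2000 UMIs per cell, 0.032 with equal weight per cell and 0.059 with cells thinned to 1000 UMIs (-0.031 as reported). With equal weight, Csf1r in microglia-like cells was 0.053 and Csf2ra in neutrophil-like cells -0.37; thinned, the latter was 0.85 and Csf1 in oligodendrocyte-like cells -0.70. The 11 pairs past 1.5-fold became 4 at a mitochondrial limit of 5%, 7 with equal weight, 0 thinned (fewer UMIs reach 50), 6 without the cell with most UMIs, 2 at 2-fold and 4 with at least 100 UMIs. Csf1 in BAM-like cells turned to -0.12 with doublet calls kept, -0.15 with equal weight and -0.062 without the cluster carrying microglia markers, an alternative chosen after seeing the data. Kitl in choroid plexus epithelial-like cells turned to -0.21 at a 5% mitochondrial limit and -0.11 with doublet calls kept, and Kitl in mural-like cells to 0.028 at Leiden resolution 2. Csf1r in mural-like cells turned to -0.15 at a mitochondrial limit of 20%, Csf2ra in ependymal-like cells to -1.64 thinned, and Csf3r in choroid plexus epithelial-like cells to -0.17 without the cluster carrying microglia markers, also chosen after seeing the data. The highest class was the same for 6 to 9 of the 9 genes. Too few mural-like cells were left at 2000 UMIs or a 5% mitochondrial limit, and too few ependymal-like and oligodendrocyte-like cells at the latter, for a value. No paired analysis was possible because each genotype has 1 library.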
